A study of Mus musculus with 9 samples.

Results

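Adipogenic transcription factors are the DNA-binding proteins that carry a fibroblast-like precursor to a fat cell, and 10 genes that encode them were described here: Cebpb, Cebpd, Stat5a, Stat5b, Zfp423, Ebf1, Ebf2, Zfp467, Pparg and Cebpa. They were matched by gene name, with earlier results of these data known, and all 10 were found once among the 54532 genes of the deposited tables. The cells were 3T3-L1, a mouse line of embryonic fibroblasts committed to the fat lineage, which is a single cell line and not adipose tissue. Undifferentiated cells (Undifferentiated) were kept at confluence for 3 days without inducers. Differentiated cells (Differentiated) and lysine-free cells (Lysfree) were likewise confluent for 3 days and were then kept in a differentiation medium that held the glucocorticoid dexamethasone (1 μM), the phosphodiesterase inhibitor IBMX (0.5 mM), rosiglitazone (1 μM) and insulin (10 μg/mL), from which lysine was omitted in the Lysfree group alone. By the study's methods the differentiation medium also held another serum than the medium of the Undifferentiated group. Its base was another DMEM, made without arginine and lysine, to which arginine and, except in Lysfree, lysine were added. The serum, the base medium, the inducers and the added time in culture thus cannot be told apart in comparisons with that group. Each group had n = 3 libraries of poly A RNA, and no source used here says that the replicates were separate cultures, so that p-values may measure technical spread alone.

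In the classical account of fat cell formation the factors act as a cascade. Glucocorticoid and a rise in cAMP, here supplied by dexamethasone and IBMX, induce the early factors C/EBPβ (Cebpb) and C/EBPδ (Cebpd), and these switch on PPARγ (Pparg) and C/EBPα (Cebpa), which then maintain each other and drive the genes of lipid storage. PPARγ is also the receptor that rosiglitazone binds. STAT5A and STAT5B, activated by growth hormone and prolactin, and the zinc finger protein ZFP423 and the early B cell factors EBF1 and EBF2 act on commitment of the precursor and on Pparg, while ZFP467 favours the fat over the bone lineage.

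Levels are given as the deposited FPKM (fragments scaled to the length of the gene and to the library total), which allow genes to be compared per length. The deposited FPKM also carry a further factor per library. It was 0.988 to 0.994 in Undifferentiated, 1.03 to 1.04 in Differentiated and 0.932 to 0.953 in Lysfree libraries, so it shifts FPKM between groups. Changes are given as log2 fold changes with their standard errors (SE) from edgeR's quasi-likelihood test on the counts, with p-values adjusted over all genes tested by Benjamini-Hochberg. A gene was called where the adjusted p was under 0.05 and the change at least 2-fold. The libraries held between 15880144 and 21806693 counts on genes, and the factors had between 113 and 7677 counts in a library, so that none was near the floor of 3 counts. Lysfree 1 stood apart from the other libraries of its group: 1010 and 995 of 14195 expressed genes differed more than 2-fold between it and Lysfree 2 and 3, against 355 to 420 for every other pair of replicates. Its values are therefore given separately wherever they decide a result. The summed FPKM of 8 adipocyte markers was 197 to 308 in Undifferentiated, 6088 to 6378 in Differentiated and 61.2 to 68.2 in Lysfree libraries, and that of 10 preadipocyte and fibroblast markers was 4884 to 5269, 984 to 1001 and 1416 to 1458. By the call, 7 of the 8 adipocyte markers were higher and all 10 fibroblast markers lower in Differentiated than in Undifferentiated cells. The adipocyte marker Cfd went the other way there, at 77.0 ± 20.7 against 48.5 ± 2.78 FPKM in Differentiated cells. All 8 adipocyte markers were called lower in Lysfree than in Differentiated cells, and 5 of 10 fibroblast markers higher and 1, Lum, lower. Of all genes tested, 10.4% were called higher and 11.4% lower in Differentiated against Undifferentiated cells, and 8.14% and 10.5% in Lysfree against Differentiated cells. Thy1 was highest in Lysfree cells, at 89.1 ± 7.73 FPKM. The summed level of 4 smooth muscle markers was 59.1 to 60.5 FPKM in Undifferentiated, 5.61 to 6.45 in Differentiated and 23.6 to 25.9 in Lysfree libraries. That of 5 endothelial markers was at most 0.217 FPKM in the first groups and 0.560 to 0.630 in Lysfree libraries. That of 5 epithelial markers was 1.54 to 2.03 FPKM in Differentiated and at most 0.377 in the other libraries, and that of 6 macrophage markers lay between 6.28 and 10.7 FPKM. The part of other cell types in the results was not tested. In bulk RNA, fewer cells expressing a factor and less of its RNA per cell cannot be told apart.

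RefSeq promoter windows of GRCm38.p6 that reach from 250 bases before to 50 after an annotated start were matched for 8 of the 10 factors, in 14 windows, with none for Cebpd and Ebf2. Cebpb has a single window at chr2:167688665-167688964 on the plus strand with 80.7% G and C, and Cebpa a single window at chr7:35119043-35119342 on the plus strand with 67.3%. Of the 3 windows of Pparg, all on the plus strand, the most upstream at chr6:115360894-115361193 has 80.3%, the middle one 62.7% and the most downstream, inside the gene at chr6:115421816-115422115, has 40.3%, against a median of 52.7% over all windows. These 4 are printed 5′ to 3′ because the levels of the 3 genes carry the comparison of early with late factors, and capitals mark matches to the motifs given after them.
Cebpb: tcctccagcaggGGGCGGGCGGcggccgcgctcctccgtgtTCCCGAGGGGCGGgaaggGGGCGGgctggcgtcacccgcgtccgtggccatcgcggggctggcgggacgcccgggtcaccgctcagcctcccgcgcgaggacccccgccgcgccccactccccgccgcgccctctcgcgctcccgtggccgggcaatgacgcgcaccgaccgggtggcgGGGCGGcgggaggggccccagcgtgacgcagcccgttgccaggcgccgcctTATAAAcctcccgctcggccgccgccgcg
Cebpa: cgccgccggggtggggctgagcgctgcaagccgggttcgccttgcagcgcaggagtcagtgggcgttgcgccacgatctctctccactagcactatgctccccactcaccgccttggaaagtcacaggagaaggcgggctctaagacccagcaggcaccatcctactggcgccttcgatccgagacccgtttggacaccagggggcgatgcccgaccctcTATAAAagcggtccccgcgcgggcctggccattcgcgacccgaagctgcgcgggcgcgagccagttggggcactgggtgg
Pparg, upstream window: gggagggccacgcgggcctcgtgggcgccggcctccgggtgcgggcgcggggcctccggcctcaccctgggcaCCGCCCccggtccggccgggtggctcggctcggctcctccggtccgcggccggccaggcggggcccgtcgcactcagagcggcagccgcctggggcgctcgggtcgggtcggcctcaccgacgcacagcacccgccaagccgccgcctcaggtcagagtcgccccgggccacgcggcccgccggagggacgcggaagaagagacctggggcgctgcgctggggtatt
Pparg, downstream window: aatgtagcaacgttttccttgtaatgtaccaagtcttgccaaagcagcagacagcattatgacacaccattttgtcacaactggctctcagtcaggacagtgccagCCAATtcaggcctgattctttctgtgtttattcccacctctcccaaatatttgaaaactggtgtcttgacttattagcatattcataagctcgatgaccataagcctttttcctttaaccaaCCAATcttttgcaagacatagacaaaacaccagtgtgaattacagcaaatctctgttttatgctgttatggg
The motifs were searched on both strands, and overlapping matches run together in capitals, as for the EBF element and a GC box of Cebpb. The GC box GGGCGG was found in 8 of the 14 windows and in 35.7% of 32851 windows of all genes. The TATA box TATAAA was found in 3 of the 14, including 30 bases before the annotated start of Cebpa and 21 bases after that of Cebpb, and in 13.6% of all windows. CCAAT was found in 2, both of Pparg (37.4% of all windows), and the EBF element TCCCNNGGG in 2, of Cebpb and Zfp467 (6.56%). The C/EBP palindrome TTGCGCAA, the C/EBP-ATF composite site TTGCATCA, the cAMP response element TGACGTCA and the STAT element TTCNNNGAA were in none of the 14 windows, and in 0.183%, 0.895%, 1.79% and 8.3% of all windows. A match is a description of these letters and shows no binding, and binding was not measured. Sites that depart from these letters were not searched, so a motif without a match may still have variants in the windows.

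The late factors changed most of the 10, both in Differentiated against Undifferentiated and in Lysfree against Differentiated cells. Pparg (ENSMUSG00000000440, chromosome 6, 115360951 to 115490399, plus strand, mm10), the nuclear receptor required for fat cell formation, was at 12.5, 14.9 and 13.7 FPKM in the Undifferentiated libraries, at 49.6, 52.7 and 53.3 in Differentiated and at 10.4, 7.32 and 7.66 in Lysfree. The groups did not overlap, and the Lysfree libraries lay below even the uninduced cells. Pparg was 3.71-fold higher in Differentiated than in Undifferentiated cells (log2 fold change 1.89, SE 0.06, adjusted p = 1.06e-189) and 5.87-fold lower in Lysfree than in Differentiated cells (log2 fold change -2.55, SE 0.12, adjusted p = 2.91e-13). The size of the first adjusted p depends on the genes kept. It was 5.17e-11, at a log2 fold change of 1.89, after edgeR's expression filter, which leaves out genes with low counts. Against Undifferentiated cells Lysfree was 1.57-fold lower (log2 fold change -0.65, SE 0.13, adjusted p = 1.54e-04), which passed the adjusted p but not the 2-fold limit. The counts are summed over the gene, so that transcripts from the upstream and the downstream window printed above, which encode different forms of the receptor, were not separated.

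Cebpa (ENSMUSG00000034957, chromosome 7, 35119293 to 35121928, plus strand), the factor that with PPARγ sustains the adipocyte state and insulin sensitivity, moved further than any other of the 10 in Differentiated cells and in Lysfree against Differentiated cells. It was at 21.5, 26.1 and 21.2 FPKM in Undifferentiated, at 167, 156 and 170 in Differentiated and at 6.32, 8.33 and 10.0 in Lysfree libraries, again without overlap. Differentiated cells held 7.02-fold more than Undifferentiated cells (log2 fold change 2.81, SE 0.06, the adjusted p being written as 0 by the test). After edgeR's expression filter that adjusted p was 4.77e-12, at a log2 fold change of 2.81. Lysfree cells held 19.1-fold less than Differentiated cells (log2 fold change -4.25, SE 0.13, adjusted p = 5.74e-16) and 2.69-fold less than Undifferentiated cells (log2 fold change -1.43, SE 0.14, adjusted p = 2.55e-10). In Lysfree cells Cebpa was thus called lower than in cells that had never met the inducers, which also differed in serum, base medium and time in culture. In the same comparison 4 of the 8 adipocyte markers were called lower and 0 higher, so Undifferentiated cells held some adipocyte RNA already. An antisense gene, Gm45091, lies across it, with at most 21 counts in a library.

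**Figure D1:**
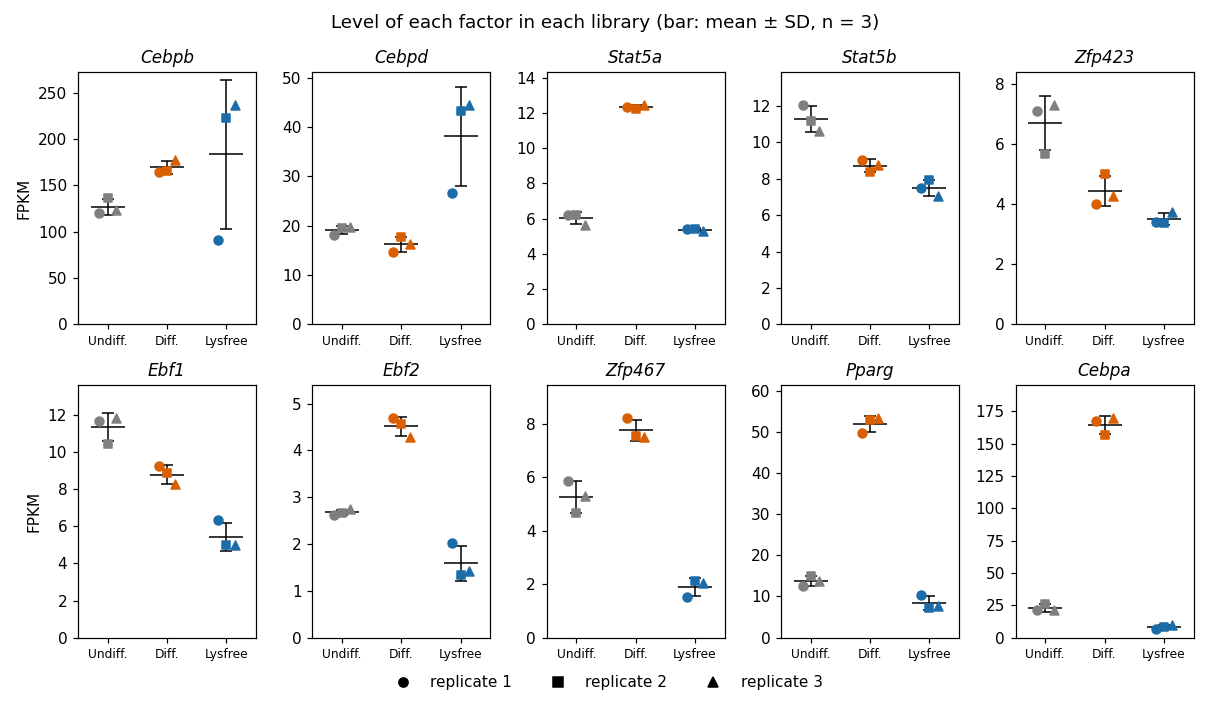
FPKM of the 10 factors in each of the 9 libraries, with 1 panel per gene, a linear axis from 0, the mean ± SD of n = 3 and symbols for the replicate. Pparg and Cebpa are high in the Differentiated libraries alone, Cebpd is highest in the Lysfree libraries, and Cebpb of Lysfree replicate 1 lies at 91.2 FPKM, far below the 223 and 237 FPKM of the other Lysfree libraries.

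The early C/EBP factors did not share this fall at the time sampled. By the study's methods RNA was collected after the differentiation period. The level of these factors earlier in induction was therefore not measured. Cebpb (ENSMUSG00000056501, chromosome 2, 167688915 to 167690418, plus strand), the first C/EBP of the cascade, had the highest mean FPKM of the 10 in every group. It was at 120, 137 and 123 FPKM in Undifferentiated and at 165, 166 and 177 FPKM in Differentiated libraries, which did not overlap. The Lysfree libraries were at 91.2, 223 and 237 FPKM. Lysfree 1 was thus below every Undifferentiated library, and the other Lysfree libraries were above every Differentiated library. Cebpb was 1.31-fold higher in Differentiated than in Undifferentiated cells (log2 fold change 0.39, SE 0.05, adjusted p = 1.63e-12). In Lysfree against Undifferentiated cells the log2 fold change was 0.59 (SE 0.18, adjusted p = 0.0089), and against Differentiated cells 0.18 (SE 0.21, adjusted p = 0.501). Both rest on the library that stood apart: without Lysfree 1 they were 0.88 (adjusted p = 4.49e-51) and 0.49 (adjusted p = 2.09e-31). Against Undifferentiated cells the adjusted p was 0.168 without Undifferentiated 3, 0.287 with DESeq2, 0.147 after edgeR's expression filter and 0.474 and 0.453 with limma on log2(FPKM + 1) and log2(FPKM + 0.1). In no setting tried was Cebpb called lower in the Lysfree group. C/EBPβ occurs as several protein forms from a single transcript, which RNA counts do not separate, and the gene overlaps Tmem189 on the opposite strand.

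Cebpd (ENSMUSG00000071637, chromosome 16, 15887286 to 15891031, plus strand), the second early C/EBP and a gene induced by glucocorticoid, was the only factor of the 10 called higher without lysine. It was at 18.2, 19.6 and 19.7 FPKM in Undifferentiated, at 14.7, 17.6 and 16.4 in Differentiated and at 26.6, 43.2 and 44.5 in Lysfree libraries. All Lysfree libraries were above all others, and Lysfree 1 was again the lowest of the 3. Cebpd was 2.45-fold higher in Lysfree than in Differentiated cells (log2 fold change 1.29, SE 0.15, adjusted p = 2.34e-07) and 2.06-fold higher than in Undifferentiated cells (log2 fold change 1.04, SE 0.13, adjusted p = 6.62e-08). Against Undifferentiated cells it lay close to the 2-fold limit, and the call ended without Lysfree 2 (0.94), without Lysfree 3 (0.91) and with limma on log2(FPKM + 1) (0.92) or log2(FPKM + 0.1) (0.95), through the fold change and not the adjusted p. In Differentiated against Undifferentiated cells it was 1.20-fold lower (log2 fold change -0.26, SE 0.07, adjusted p = 2.41e-04). Spidr lies on the opposite strand and overlaps Cebpd.

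The paired STAT genes moved apart. Stat5a (ENSMUSG00000004043, chromosome 11, 100859351 to 100885169, plus strand) was at 6.20, 6.23 and 5.65 FPKM in Undifferentiated, at 12.3, 12.2 and 12.5 in Differentiated and at 5.42, 5.42 and 5.31 in Lysfree libraries. The Differentiated libraries stood above all others and varied little. The Lysfree libraries lay just below the Undifferentiated ones in FPKM, but overlapped them as counts over the library total. Stat5a was 2.00-fold higher in Differentiated than in Undifferentiated cells (log2 fold change 1.00, SE 0.07, adjusted p = 3.47e-48), and 2.19-fold lower in Lysfree than in Differentiated cells (log2 fold change -1.13, SE 0.10, adjusted p = 3.04e-09). The rise lies at the 2-fold limit, and its call ended under 5 alternatives, among them leaving out Undifferentiated 3 (0.97) or Differentiated 3 (0.99). Lysfree against Undifferentiated cells gave a log2 fold change of -0.12 (SE 0.11, adjusted p = 0.481). Stat5b (ENSMUSG00000020919, chromosome 11, 100780731 to 100850724, minus strand), its neighbour and near-identical paralog, was at 12.0, 11.2 and 10.6 FPKM, at 9.04, 8.38 and 8.73 FPKM and at 7.47, 7.90 and 7.05 FPKM in the same order of groups. It fell 1.32-fold in Differentiated (log2 fold change -0.40, adjusted p = 4.07e-08) and 1.46-fold in Lysfree cells (log2 fold change -0.55, adjusted p = 1.19e-04) against Undifferentiated cells, and the difference of -0.16 between Lysfree and Differentiated cells did not pass the test (SE 0.10, adjusted p = 0.274). The split of reads between the paralogs is uncertain, and Stat5a also overlaps Stat3 on the opposite strand.

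Zfp423 and Ebf1, factors of the committed precursor, were lower in both induced groups than in Undifferentiated cells. Values are given for Undifferentiated, Differentiated and Lysfree libraries in turn. Zfp423 (ENSMUSG00000045333, chromosome 8, 87661810 to 87959595, minus strand) was at 7.10, 5.66 and 7.30 FPKM, then at 4.02, 5.0 and 4.27 FPKM, then at 3.42, 3.38 and 3.74 FPKM. It was 1.53-fold lower in Differentiated (log2 fold change -0.61, adjusted p = 2.44e-12) and 1.84-fold lower in Lysfree than in Undifferentiated cells (log2 fold change -0.88, adjusted p = 1.20e-06), while Lysfree against Differentiated cells gave -0.27 (SE 0.13, adjusted p = 0.104). Ebf1 (ENSMUSG00000057098, chromosome 11, 44617317 to 45008091, plus strand) was at 11.7, 10.5 and 11.8 FPKM, then at 9.26, 8.86 and 8.26 FPKM, then at 6.33, 4.98 and 5.01 FPKM, with no overlap between groups. It was 1.31-fold lower in Differentiated (log2 fold change -0.39, adjusted p = 4.88e-10) and 2.02-fold lower in Lysfree than in Undifferentiated cells (log2 fold change -1.01, SE 0.11, adjusted p = 2.90e-09). The last call lies at the 2-fold limit and ended without Undifferentiated 1 (-0.99) or 3 (-0.98), without Lysfree 2 or 3 (both -0.96) and under 2 other alternatives. Lysfree cells had 1.55-fold less Ebf1 than Differentiated cells (log2 fold change -0.63, SE 0.11, adjusted p = 5.22e-05).

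Ebf2 and Zfp467 instead peaked in Differentiated cells and were lowest without lysine. Ebf2 (ENSMUSG00000022053, chromosome 14, 67233292 to 67430918, plus strand), a factor of brown and beige fat precursors, was at 2.63, 2.66 and 2.74 FPKM in Undifferentiated, at 4.69, 4.56 and 4.29 in Differentiated and at 2.02, 1.33 and 1.43 in Lysfree libraries. It was 1.66-fold higher in Differentiated than in Undifferentiated cells (log2 fold change 0.73, adjusted p = 8.56e-15), and in Lysfree cells 2.72-fold lower than in Differentiated (log2 fold change -1.44, SE 0.15, adjusted p = 5.22e-08) and 1.63-fold lower than in Undifferentiated cells (log2 fold change -0.70, adjusted p = 4.44e-04). Zfp467 (ENSMUSG00000068551, chromosome 6, 48427697 to 48445825, minus strand) was at 5.86, 4.67 and 5.28 FPKM, at 8.22, 7.53 and 7.52 FPKM and at 1.51, 2.12 and 2.06 FPKM. The groups of both genes did not overlap. Zfp467 was 1.44-fold higher in Differentiated than in Undifferentiated cells (log2 fold change 0.53, adjusted p = 6.64e-09), and Lysfree cells held 3.90-fold less than Differentiated (log2 fold change -1.96, SE 0.14, adjusted p = 3.54e-10) and 2.68-fold less than Undifferentiated cells (log2 fold change -1.42, SE 0.16, adjusted p = 5.52e-09). After Cebpa and Pparg, Zfp467 had the largest fall of the 10 in Lysfree against Differentiated cells.

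Counted together, 3 of the 10 factors were called in Differentiated against Undifferentiated cells, all higher (Cebpa, Pparg and Stat5a), where 10.4% of 24402 genes tested were called higher and 11.4% lower. All 10 passed the adjusted p alone, 6 higher and 4 lower, where 23% and 23.2% of all genes did. In Lysfree against Undifferentiated cells 4 were called, Cebpd higher and Cebpa, Zfp467 and Ebf1 lower, where 5.52% of 23994 genes were called higher and 8.76% lower. There 9 passed the adjusted p alone, Cebpb (with the limits above) and Cebpd higher and 7 lower, with 18% and 17.1% of all genes. In Lysfree against Differentiated cells 6 were called, Cebpd higher and Cebpa, Pparg, Zfp467, Ebf2 and Stat5a lower, where 8.14% of 24130 genes were called higher and 10.5% lower, and 7 passed the adjusted p alone, with 19.7% and 18.8% of all genes. Without Lysfree 1 the same 6 were called and all 10 passed the adjusted p alone. FPKM did not overlap between groups for 10, 9 and 9 factors in the 3 comparisons in this order, with Cebpb the exception in both comparisons of Lysfree cells, and for 50.9%, 43.5% and 46.6% of all genes. Some of these separations rest on the factor per library that the FPKM carry. As counts over the library total, Stat5a overlapped between Lysfree and Undifferentiated libraries. Stat5b and Zfp423 did so between Lysfree and Differentiated libraries. The comparisons share libraries in pairs and are not independent of each other. The median log2 fold change of all genes was 0.019, -0.015 and -0.058.

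**Figure D2:**
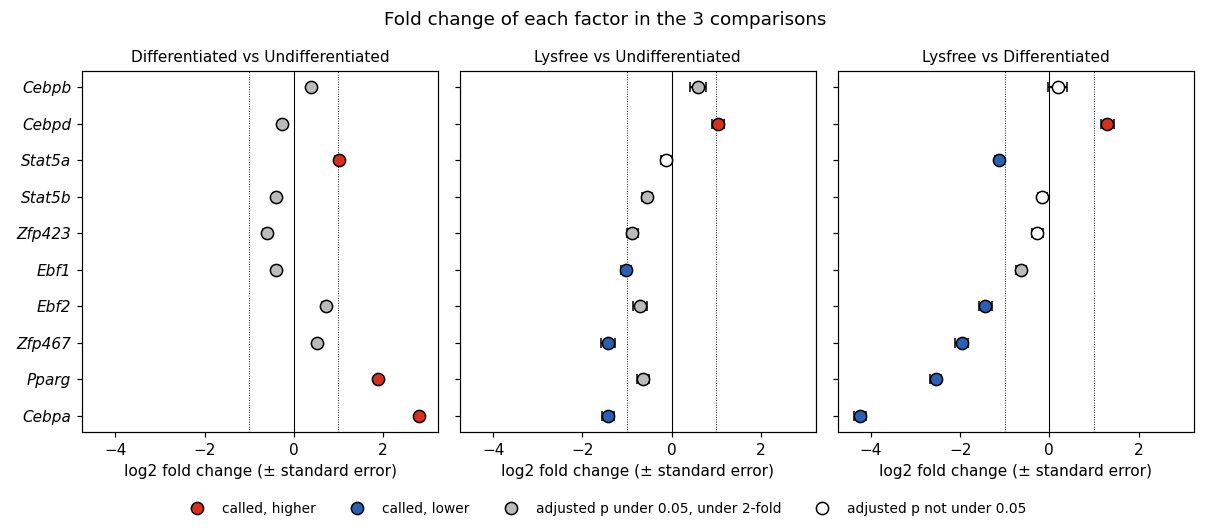
Log2 fold change with its standard error for each factor in the 3 comparisons, with dotted lines at a 2-fold change and the fill giving the call. In Lysfree against Differentiated cells Cebpd lies at 1.29 and Cebpa at -4.25, with the other 8 factors between these values.

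The order of the levels changed with the state of the cells. In Undifferentiated cells Cebpb at 127 ± 8.63 FPKM (SD, n = 3) was followed by Cebpa at 22.9 ± 2.76, Cebpd at 19.2 ± 0.845 and Pparg at 13.7 ± 1.21 FPKM, whose libraries did not overlap from one gene to the next. In Differentiated cells Cebpb at 169 ± 6.92 and Cebpa at 164 ± 7.07 FPKM overlapped at the top, with Pparg at 51.9 ± 2.02 FPKM next and Cebpd at 16.2 ± 1.47 FPKM after it. In Lysfree cells Cebpb at 184 ± 80.3 was followed by Cebpd at 38.1 ± 10.0 FPKM, and Pparg at 8.47 ± 1.72 and Cebpa at 8.23 ± 1.85 FPKM overlapped. Lower in the order, Ebf1 overlapped Stat5b in Undifferentiated and Differentiated cells, Zfp423 overlapped Stat5a and Stat5a overlapped Zfp467 in Undifferentiated cells, Ebf2 overlapped Zfp423 in Differentiated cells, and Cebpa overlapped Stat5b, Ebf1 overlapped Stat5a and Zfp467 overlapped Ebf2 in Lysfree cells. Ebf2 was the lowest of the 10 in Undifferentiated and Lysfree cells, and Zfp423 in Differentiated cells. The summed FPKM of the 10 was 226 ± 10.7, 448 ± 12.2 and 264 ± 89.6 FPKM in Undifferentiated, Differentiated and Lysfree cells, of which Cebpa, Cebpb and Cebpd made up 74.7%, 78.0% and 85.6%. In Lysfree 1 the sum was 161 FPKM and the share 77.2%, against 307 and 324 FPKM and 89.4% and 90.0% in the other Lysfree libraries.

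Ratios within a library do not depend on its depth. Cebpa stood to Cebpb as 0.179, 0.191 and 0.172 in the Undifferentiated libraries, as 1.01, 0.943 and 0.957 in Differentiated and as 0.0694, 0.0374 and 0.0424 in Lysfree libraries, so that the late C/EBP was about level with the early C/EBP after differentiation with lysine and far below it without. The ratio of Pparg to Cebpb was 0.104 to 0.111 in Undifferentiated and 0.301 to 0.318 in Differentiated libraries. In Lysfree 1 it was 0.115, above the Undifferentiated libraries, while Lysfree 2 and 3 were at 0.0329 and 0.0324, below them. The ratio of Cebpa to Cebpd was 1.08 to 1.33, 8.86 to 11.4 and 0.193 to 0.238 in the groups in this order, and that of Cebpa to Pparg was 1.55 to 1.75, 2.97 to 3.37 and 0.606 to 1.31. Stat5a stood to Stat5b as 0.515 to 0.557 in Undifferentiated, as 1.36 to 1.46 in Differentiated and as 0.685 to 0.753 in Lysfree libraries, an intermediate place for the Lysfree group. Ebf2 stood to Ebf1 as 0.225 to 0.254, 0.507 to 0.519 and 0.268 to 0.319, and Zfp467 to Zfp423 as 0.723 to 0.826, 1.51 to 2.04 and 0.442 to 0.626. With 3 libraries against 3 an exact two-sided permutation test of a single ratio cannot give a p below 0.1, so these ratios are descriptions.

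**Figure D3:**
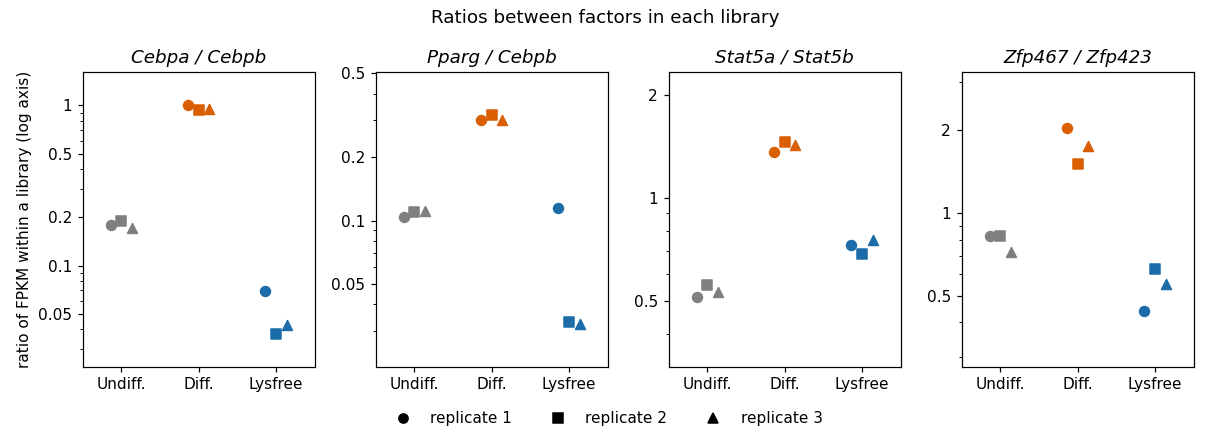
Ratio of the FPKM of paired factors in each library, on log axes, with symbols for the replicate. Cebpa to Cebpb is between 0.943 and 1.01 in Differentiated and between 0.0374 and 0.0694 in Lysfree libraries, and Stat5a to Stat5b exceeds 1 in the Differentiated libraries alone.

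Lysfree 1 differed from its group in some factors and not in others. The mean of Lysfree 2 and 3 was 2.52-fold its level for Cebpb, 1.65-fold for Cebpd, 1.45-fold for Cebpa and 1.38-fold for Zfp467. For Pparg, Ebf2 and Ebf1 the mean of the other libraries was 0.717, 0.683 and 0.789 of its level. Stat5a, Stat5b and Zfp423 were within 0.06 of it on the log2 scale. The part of this library's difference in the results was measured by leaving it out, which kept all 6 calls against Differentiated and all 4 calls against Undifferentiated cells.

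By the root mean square difference of log2(FPKM + 0.1) after centring over the 9 libraries, 11623 genes with a mean of at least 1 FPKM over the 9 libraries were ranked for likeness to the late and early factors. Nearest to Pparg were Hibadh, an enzyme of valine breakdown (0.113, with 9.87, 36.7 and 6.99 FPKM in Undifferentiated, Differentiated and Lysfree cells), Crat, a carnitine acetyltransferase (0.129), and Cldn15, a claudin (0.133). Nearest to Cebpa were the lipid droplet gene Plin4 (0.192, with 27.8, 159 and 9.08 FPKM), the phosphatidate phosphatase Lpin1 (0.207) and the pseudogene Gm3571 (0.231). Nearest to Cebpb were Sf3b5, a splicing factor subunit (0.112, with 10.5, 14.1 and 15.2 FPKM), Taf15 (0.140) and Nudt9 (0.146). The measure takes in the spread within a group, which was wide for these genes in Lysfree cells. They were at 15.2 ± 5.08, 59.6 ± 23.1 and 33.8 ± 11.2 FPKM there, and Cebpb at 184 ± 80.3 FPKM. Lysfree 1 was kept in this ranking, and its part in it was not tested. Nearest to Cebpd were Mid1ip1, an activator of fatty acid synthesis (0.0848, with 21.7, 18.3 and 40.8 FPKM), the homeobox gene Irx2 (0.142) and Slc3a2 (0.143, with 77.8, 75.4 and 181 FPKM), a subunit of amino acid transporters. Spread within Lysfree cells enters here too. Mid1ip1 was at 40.8 ± 10.8, Irx2 at 24.4 ± 4.01 and Slc3a2 at 181 ± 28.5 FPKM there, and Cebpd at 38.1 ± 10.0 FPKM. Among the 10 themselves the nearest pairs were Stat5b with Zfp423 (0.207), Zfp423 with Ebf1 (0.213) and Stat5b with Ebf1 (0.253), and Cebpd with Cebpa was the most distant (2.26). Pparg and Cebpa, at 0.754, were less alike than Pparg and Ebf2, at 0.556, by this measure, which depends on the size of a change. Pparg, Cebpa and Ebf2 shared its direction. Their log2 fold changes were 1.89, 2.81 and 0.73 in Differentiated against Undifferentiated cells. In Lysfree against Differentiated cells they were -2.55, -4.25 and -1.44. Each value is a description over 9 libraries in 3 groups.

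Other members of the families and pathways were taken from 8 lists. Of all genes tested, 10.4% were called higher and 11.4% lower in Differentiated against Undifferentiated cells. The shares were 5.52% and 8.76% in Lysfree against Undifferentiated cells, and 8.14% and 10.5% in Lysfree against Differentiated cells. By the adjusted p alone they were 23% and 23.2%, 18% and 17.1%, and 19.7% and 18.8%. No list was tested against these shares, so list counts are descriptions. Of 37 genes that PPARγ and C/EBPα are known to switch on, 34 were called in Differentiated against Undifferentiated cells, all higher (median log2 fold change 3.55), with 34 higher and 2 lower by the adjusted p alone. In Lysfree against Differentiated cells 32 of 36 were called lower and 1 higher (median -4.09, or -3.96 with the 3 genes at 0 counts set to their bounds). The 1 higher was Cyp4b1, a fatty acid hydroxylase, named for its direction after its value was seen, at 0.0737 ± 0.0647 FPKM in Undifferentiated, 0.691 ± 0.0920 in Differentiated and 14.6 ± 1.47 in Lysfree cells. Retn, the hormone resistin, was at 52.7 ± 3.54 FPKM in Differentiated cells and had 0 or 1 counts in each Lysfree library. Slc2a4, the insulin-responsive glucose transporter, was at 10.9 ± 0.369 FPKM in Differentiated cells and also had 0 or 1 counts in each Lysfree library, and Pck1, an enzyme of glyceroneogenesis, was at 7.51 ± 0.254 FPKM and had 1 to 4 counts. Car3, a carbonic anhydrase of fat cells, was at 28.9 ± 1.77 FPKM in Differentiated cells and had 0 counts in every Lysfree library, at least 467-fold lower against a floor of 3 counts per library. Against Undifferentiated cells 11 of 37 were called lower in Lysfree cells and 4 higher (median -0.22), the latter Plin2, Cd36, Angptl4 and Cyp4b1.

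Of 9 regulators of lipid synthesis that act late in the cascade, 6 were called in Differentiated against Undifferentiated cells, all higher (median 1.61, with 8 higher and 1 lower by the adjusted p alone). In Lysfree against Differentiated cells 7 were called, all lower (median -2.38, with 8 lower and 1 higher by the adjusted p alone), and against Undifferentiated cells 2, both lower (median -0.11, with 3 lower and 1 higher by the adjusted p alone). Insig1, which restrains cholesterol synthesis, went from 17.0 ± 1.32 FPKM in Undifferentiated to 192 ± 2.46 in Differentiated and 9.16 ± 0.816 in Lysfree cells. Nr1h3, the oxysterol receptor LXRα, was at 4.25 ± 0.548, 32.3 ± 0.550 and 5.94 ± 0.866 FPKM. Thrsp, a nuclear protein of lipogenic tissue, was at 3.52 ± 0.718 and 12.7 ± 0.425 FPKM and had 1 to 5 counts in the Lysfree libraries. Klf15, a Krüppel-like factor that stands in this list and in that of the early inducers, was at 2.94 ± 0.147 FPKM in Differentiated cells and at 0.207 ± 0.0525 and 0.0563 ± 0.0820 FPKM in Undifferentiated and Lysfree cells.

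**Figure D4:**
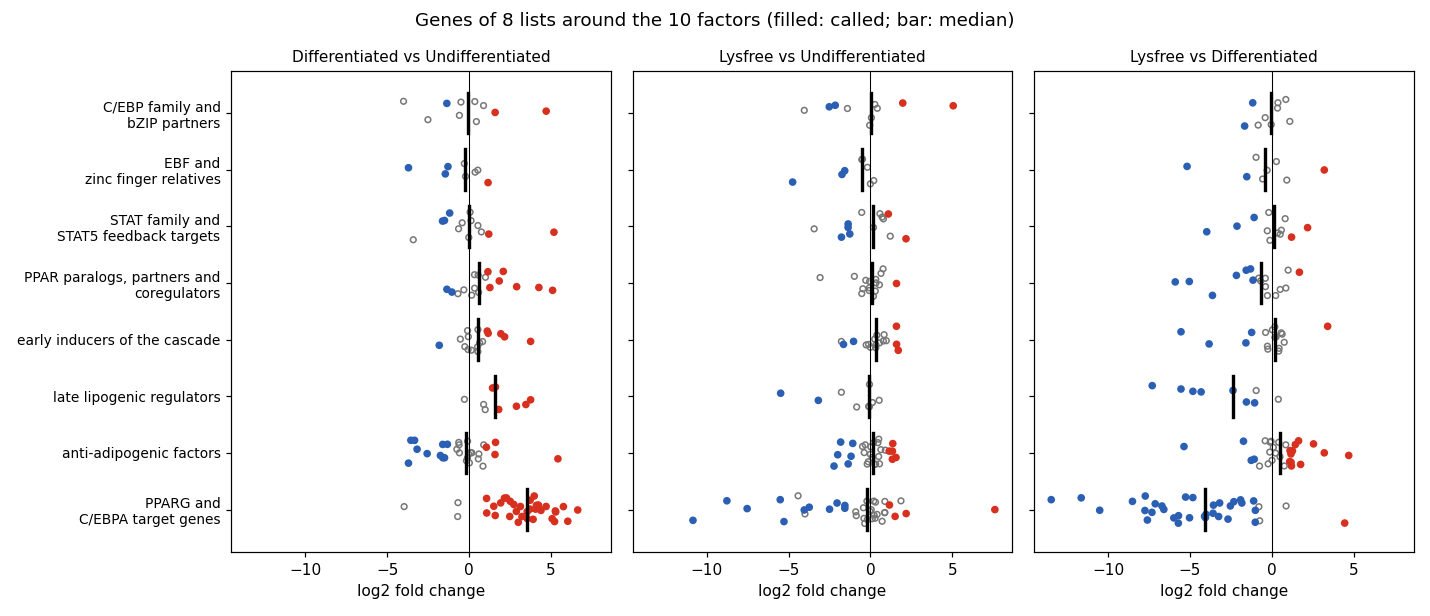
Log2 fold changes fitted by edgeR for the genes of 8 lists in the 3 comparisons, with filled points for called genes, open points for the others and a bar at the median. The median of the PPARG and C/EBPA target genes is 3.55 in Differentiated against Undifferentiated and -4.09 in Lysfree against Differentiated cells, where values of genes with few counts depend on the fit.

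Partners of PPARγ moved less uniformly. Of its paralogs, partners and coregulators 7 of 17 were called higher and 2 lower in Differentiated against Undifferentiated cells (median 0.58), and 7 of 17 lower and 1 higher in Lysfree against Differentiated cells (median -0.68). Against Undifferentiated cells 1 of 16 was called in Lysfree cells, higher (median 0.07, with 7 higher and 4 lower by the adjusted p alone), the coactivator gene Ppargc1a, named after its value was seen. Ppargc1b, a coactivator of mitochondrial genes, was at 0.679 ± 0.0434 FPKM in Undifferentiated, 13.3 ± 0.695 in Differentiated and 1.03 ± 0.210 in Lysfree cells. Ppard, the widely expressed paralog, was at 8.05 ± 0.280, 19.8 ± 0.879 and 6.38 ± 0.434 FPKM, and the corepressor Nrip1 at 3.53 ± 0.372, 12.8 ± 0.839 and 4.98 ± 0.854 FPKM. Ncoa3, a steroid receptor coactivator, was the gene called higher without lysine, at 7.84 ± 0.425, 3.12 ± 0.283 and 9.59 ± 0.442 FPKM. Rxra encodes the obligate partner of PPARγ on DNA and was named after its value was seen. It was at 54.7 ± 1.98, 62.0 ± 1.98 and 26.7 ± 0.563 FPKM, a log2 fold change of -1.15 in Lysfree against Differentiated cells (SE 0.08, adjusted p = 3.24e-10).

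Among relatives of the C/EBP factors 2 of 10 were called higher and 1 lower in Differentiated, and 2 higher and 2 lower in Lysfree against Undifferentiated cells (medians -0.07 and 0.00), and 2 of 9 in Lysfree against Differentiated cells, both lower (median -0.04, with 3 higher and 4 lower by the adjusted p alone). The 2 were the clock-controlled PAR factors Tef, at 19.1 ± 0.498, 13.8 ± 0.919 and 4.16 ± 0.287 FPKM in Undifferentiated, Differentiated and Lysfree cells, and Dbp, at 6.23 ± 0.145, 2.48 ± 0.126 and 1.05 ± 0.318 FPKM. Both overlap other genes. Further relatives were named after their values were seen, for their known part beside C/EBPβ. Ddit3 (CHOP), a stress-induced partner that blocks C/EBP binding and is also held by the list of opposing factors, was at 82.6 ± 5.30, 55.8 ± 4.01 and 96.2 ± 21.9 FPKM, a log2 fold change of 0.85 in Lysfree against Differentiated cells (SE 0.13, adjusted p = 1.39e-05). Its Lysfree libraries ran from 71.0 to 110 FPKM, across the 77.6 to 88.1 FPKM of the Undifferentiated ones. Lysfree against Undifferentiated cells did not pass the test (log2 fold change 0.27, SE 0.12, adjusted p = 0.0889). Cebpg, a partner without an activation domain, was at 26.5 ± 0.319, 49.8 ± 0.867 and 26.7 ± 2.67 FPKM. Atf3, a stress-induced bZIP factor, was at 0.925 ± 0.317, 24.0 ± 0.361 and 29.2 ± 1.21 FPKM, high in both induced groups.

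The early inducers of the cascade, among them Krüppel-like factors, EGR2 and AP-1, divided. Of 17 tested, 5 were called higher and 1 lower in Differentiated (median 0.54) and 3 higher and 2 lower in Lysfree (median 0.34) against Undifferentiated cells, and 1 higher and 4 lower in Lysfree against Differentiated cells (median 0.18). Klf4, which binds the Cebpb promoter early in induction, was the gene called higher, at 23.7 ± 0.0730 FPKM in Undifferentiated, 6.83 ± 0.126 in Differentiated and 69.3 ± 17.2 in Lysfree cells. Fos, a subunit of AP-1, was at 1.82 ± 0.336, 8.43 ± 0.549 and 0.564 ± 0.0858 FPKM, and Egr2, an early response gene that acts with Klf4, at 1.18 ± 0.187, 1.76 ± 0.112 and 0.560 ± 0.109 FPKM. The other 2 called lower were Klf15, which both lists hold, and Jun, named to complete the count.

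Among factors listed here as opposing fat cell formation more were called higher than lower in Lysfree against Differentiated cells. In Lysfree against Differentiated cells 12 of 29 were called higher and 4 lower (median 0.50), and in Differentiated against Undifferentiated cells 4 of 29 higher and 10 lower (median -0.16). Against Undifferentiated cells 5 of 28 were called higher and 6 lower in Lysfree cells (median 0.15). Id2, an inhibitor of bHLH factors, was at 5.11 ± 0.323, 0.426 ± 0.225 and 10.9 ± 0.520 FPKM in Undifferentiated, Differentiated and Lysfree cells. Id2 has been described on both sides of adipogenesis, and whether each listed factor opposes it in these cells was not tested. Snai2, a zinc finger repressor, was at 35.1 ± 0.530, 6.03 ± 0.255 and 33.8 ± 5.73 FPKM, and Sox9, a factor of cartilage and precursor cells, at 28.6 ± 2.77, 8.65 ± 0.708 and 27.9 ± 1.04 FPKM. Zfp521, which binds EBF1 and opposes ZFP423, was at 15.5 ± 0.204, 1.22 ± 0.155 and 10.7 ± 0.830 FPKM, a log2 fold change of 3.20 in Lysfree against Differentiated cells (SE 0.13, adjusted p = 2.62e-14).

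Of the EBF and zinc finger relatives, which include Zfp521, 1 of 8 was called higher and 3 lower in Differentiated (median -0.26), and 3 were called in Lysfree against Undifferentiated cells, all lower (median -0.51). In Lysfree against Differentiated cells Zfp521 was called higher and 2 were called lower (median -0.43). These were Zfp395, at 34.1 ± 0.935, 29.8 ± 1.40 and 9.86 ± 0.870 FPKM, and Ebf4, which had 0 counts in every Lysfree library but at most 7 in the others. In the STAT list 2 of 13 were called higher and 3 lower in Differentiated (median -0.02) and 2 higher and 4 lower in Lysfree (median 0.18) against Undifferentiated cells, and 2 of 12 higher and 3 lower in Lysfree against Differentiated cells (median 0.11). Socs2, a feedback inhibitor that STAT5 induces, was at 1.20 ± 0.0421, 1.20 ± 0.0865 and 5.22 ± 0.335 FPKM, and Jak2, the kinase upstream of STAT5, at 11.7 ± 0.551, 8.91 ± 0.309 and 19.6 ± 3.25 FPKM. Cish, another STAT5 feedback inhibitor, and Prlr, the prolactin receptor, were among those called lower and were named after their values were seen. Without Lysfree 1 the calls in Lysfree against Differentiated cells were 32 lower and 1 higher among target genes, 7 lower among late regulators, 7 lower and 1 higher among PPARγ partners, 1 higher and 1 lower among C/EBP relatives, 1 higher and 4 lower among early inducers, 13 higher and 4 lower among opposing factors, 2 higher and 2 lower among EBF relatives, and 2 higher and 3 lower in the STAT list.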

How the data were processed

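Poly A RNA of 9 libraries of 3T3-L1 cells was grouped by the sample labels, and no column of the tables was without a sample. The authors deposited read counts per gene, not normalized, and FPKM for the same genes. Per the submitters' processing notes HISAT2 2.0.5, featureCounts 1.5.0-p3 and mm10 were used; the strand setting and annotation release are not given in the sources used here, so overlapping genes may share reads. Counts were tested with edgeR 4.0.16 (R 4.3.3; glmQLFit and glmQLFTest, TMM, Benjamini-Hochberg) in the 6 libraries of each comparison, leaving out genes with 0 counts in each of the 6. The SE is the log2 fold change divided by the square root of F. Scripts were tested on simulated counts. Members and lists were chosen with earlier results of these data known. Genes named are the 10 factors, the up to 4 largest called changes per list in Lysfree vs Differentiated with at least 1 FPKM in a group, the 3 genes most like each of 4 factors, and those said to be chosen after their values were seen. A gene that this rule names is not reported here. Where Ddit3 had 2 identifiers, the one with more counts was used. Alternatives were edgeR's expression filter, scaling by library size only or by median-of-ratios factors, DESeq2 1.42.0, all 9 libraries in 1 fit, a replicate block, limma 3.58.1 on log2(FPKM + 1) and log2(FPKM + 0.1), no fold threshold and leaving out each replicate.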

Additional observations from a re-analysis of the deposited data

How the results depend on the processing

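For the 10 factors in the 3 comparisons, 402 of 420 values under the alternatives kept the direction and the call. A factor that was not called counts as kept even where its adjusted p no longer passed. This holds for Cebpb in Lysfree vs Undifferentiated under the alternatives given above. Another 15 fell below the 2-fold limit (Stat5a in Differentiated vs Undifferentiated, Cebpd and Ebf1 in Lysfree vs Undifferentiated) and 3 turned direction. The 3 were Cebpb in Lysfree vs Differentiated, at -0.0033 and -0.0041 with limma on log2(FPKM + 1) and log2(FPKM + 0.1) and -0.043 without Lysfree 3, none past the test, against 0.49 without Lysfree 1, and the cause was not tested. Without a fold threshold 10 and 9 factors passed in Differentiated vs Undifferentiated and Lysfree vs Undifferentiated, by construction, and 11260, 8428 and 9280 of all genes in the 3 comparisons, against 5329, 3426 and 4507 with it. Limma on log2(FPKM + 1) called 2 factors in Lysfree vs Undifferentiated and 2726, 1474 and 2198 of all genes. After edgeR's expression filter the adjusted p in Differentiated vs Undifferentiated was 5.34e-09 for Stat5a and 4.99e-05 for Cebpb, against 3.47e-48 and 1.63e-12. Their fold changes stayed nearly the same, so the size of an adjusted p in that comparison depends on the genes kept. Leaving out a replicate gave 2 to 4 factors called in Lysfree vs Undifferentiated, with 2 without Lysfree 2 or 3. Of 336 list counts under the alternatives, chosen after seeing the data, 319 stayed within 1.5 times the value reported.

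Same-numbered replicates correlated at -0.0842 to 0.115 in their deviations from the group means, and different-numbered ones at -0.161 to 0.114. The values thus gave no sign of a pairing. With 3 libraries per group they cannot settle whether same-numbered samples were handled together. With a replicate block 3, 4 and 6 factors were called in the 3 comparisons, as without it, and 4837, 3179 and 4173 of all genes.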
